A study of Mus musculus with 12 samples.

Results

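The erythroid haem pathway and its iron supply were followed in the spleen of 12 mice through 10 genes, those for 7 enzymes of haem synthesis (Alas2, Alad, Uros, Urod, Cpox, Ppox and Fech), the mitochondrial iron importer Slc25a37, the transferrin receptor Tfrc and the endosomal ferrireductase Steap3. All 10 genes had at least 1 probe on the array, which measured 19057 named genes with 45281 probes. The members were chosen by name, and each gene was represented by the probe with its highest mean over the 12 mice. HFD-ED fed mice had a higher mean level than control and HFD-CO fed mice in 9 of the 10 genes, by 1.53 log2 units (2.88-fold) against control and 1.70 (3.25-fold) against HFD-CO for Tfrc, the largest differences, but none passed an adjusted p of 0.05. Cpox, 1 of the 9, and Steap3 were too dim to be read. The higher levels were found in HFD-ED mice 2, 3 and 4, whereas HFD-ED mouse 1 ranked 8 to 11 of 12 in the 8 genes with a 12-mouse mean of 7.5 or more.

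Haem is made in all cells, and in the largest amounts by the erythroblasts that fill themselves with haemoglobin. The pathway begins in the mitochondrion, where ALAS2 joins glycine to succinyl-CoA, and continues in the cytosol from ALAD to UROD. It returns to the mitochondrion, where CPOX and PPOX act and FECH finally inserts iron. Erythroblasts take up that iron as transferrin bound to the transferrin receptor, reduce it in the endosome through STEAP3 and carry it into the mitochondrion through mitoferrin 1, the product of Slc25a37. The mouse spleen is an organ of erythropoiesis in adult life as well as the place where old red cells are broken down.

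The mice were male C57BL/6J, 6 weeks old at purchase, which were acclimatized for 3 weeks and then fed for 8 weeks. Control feed contained fat at 5 g per 100 g, as 2.5 g corn oil and 2.5 g coconut oil. The HFD-CO diet, a high fat diet with corn oil, held 15 g fat per 100 g, as 5 g corn oil and 10 g coconut oil, with 1 g cholesterol. In the HFD-ED diet, 2 g of an oil rich in eicosapentaenoic and docosahexaenoic acid took the place of corn oil (3 g left), with coconut oil and cholesterol as in HFD-CO. Each diet was represented by 4 mice, picked from larger groups by body weight and plasma lipids, with 1 array per mouse, so these mice are not a random sample of those fed. Both high fat diets shared the added coconut oil and cholesterol. By the study's account of the diets, they also held more sucrose, casein, choline and methionine and less corn starch than the control feed. HFD-ED differed from control in all of these as well as in the fish-oil fatty acids.

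Levels are on the deposited log2 scale, which ran from 6.95 to 14.79 with a lower quartile of 7.08 and a median of 7.14, so that values near 7.1 lie at the lower end, where the scale is compressed and RNA could not be told from background. Of the 12 arrays, 4 carried the pancreatic amylase Amy2a5 above 10, namely control 2 (12.14), HFD-CO 1 (13.58), HFD-CO 4 (14.44) and HFD-ED 1 (11.87), against 9.37 or less in the other 8. The 6 skeletal muscle markers examined, a check made because one extraction note names muscle, stayed at 7.68 or below, while 5 of 6 B cell markers and all 8 red pulp macrophage markers had means of 7.5 or more. Over all probes limma called 0 for HFD-ED against control (0%), 1 for HFD-ED against HFD-CO (0.00221%) and 0 for HFD-CO against control (0%) at an adjusted p of 0.05. The counts at an unadjusted p of 0.05 were 4620, 4211 and 2072. The 1 probe called was that of Zfp58, a zinc finger gene outside the pathway, at 7.65 in HFD-ED and 7.85 in HFD-CO (difference -0.20, adjusted p = 0.0375, limma). In RNA of whole spleen, a change in the number of erythroid cells and a change in the RNA of these genes per cell cannot be told apart.

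The sequences ahead of the start sites were read because erythroid transcription runs through GATA and CACCC-box elements and the genes varied together between mice. Those shown are of 4 genes in which a match was found, so they do not stand for all 10 genes. They are the 250 bases before the start of transcription in RefSeq on GRCm38.p6, 5′ to 3′ on the strand of the gene. Alas2 lies at chrX:150547167-150547416 (plus strand), Alad at chr4:62520064-62520313 (minus strand), the first Uros start at chr7:133709296-133709545 and the second at chr7:133702501-133702750 (both minus strand), and Tfrc at chr16:32608646-32608895 (plus strand). Capitals mark matches on either strand to a GATA element (AGATAA or AGATAG, as well as TGATAA or TGATAG) or to a CACCC-type element (CCNCNCCC), and the matches of the second kind overlap each other in places.
Alas2: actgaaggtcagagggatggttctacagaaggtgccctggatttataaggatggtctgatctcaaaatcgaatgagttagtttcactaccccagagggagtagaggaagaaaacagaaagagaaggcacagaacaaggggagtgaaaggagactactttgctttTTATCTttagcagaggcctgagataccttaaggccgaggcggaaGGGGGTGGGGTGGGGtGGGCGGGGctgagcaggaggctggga
Alad: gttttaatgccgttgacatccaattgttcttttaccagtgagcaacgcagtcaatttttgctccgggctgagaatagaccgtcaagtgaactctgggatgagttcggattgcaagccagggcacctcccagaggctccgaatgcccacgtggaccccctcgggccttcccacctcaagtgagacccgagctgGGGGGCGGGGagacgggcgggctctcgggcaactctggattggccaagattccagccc
Uros first start: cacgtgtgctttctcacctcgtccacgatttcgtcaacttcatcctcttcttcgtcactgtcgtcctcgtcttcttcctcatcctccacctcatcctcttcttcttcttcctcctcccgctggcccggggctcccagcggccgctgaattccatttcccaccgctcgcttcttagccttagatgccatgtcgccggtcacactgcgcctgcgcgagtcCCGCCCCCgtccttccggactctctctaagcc
Uros second start: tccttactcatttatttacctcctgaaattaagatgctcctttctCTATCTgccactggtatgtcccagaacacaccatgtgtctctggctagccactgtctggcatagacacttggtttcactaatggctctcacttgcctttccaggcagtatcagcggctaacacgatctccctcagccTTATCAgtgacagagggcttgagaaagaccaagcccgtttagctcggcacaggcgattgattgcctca
Tfrc: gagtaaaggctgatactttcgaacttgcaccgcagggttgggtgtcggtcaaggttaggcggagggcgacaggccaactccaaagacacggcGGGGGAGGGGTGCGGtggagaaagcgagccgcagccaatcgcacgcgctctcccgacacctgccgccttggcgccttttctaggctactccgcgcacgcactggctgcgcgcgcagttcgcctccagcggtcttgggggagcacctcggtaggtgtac
The Alas2 sequence held 1 GATA match, beginning 86 bases before the start, and 4 CACCC-type matches, the first 3 overlapping, within the last 42 bases. The first Uros start had a CACCC-type match beginning 32 bases before it and no GATA match, whereas the second had GATA matches 205 and 68 bases before it and no CACCC-type match. The Alad and Tfrc starts shown had 2 and 3 overlapping CACCC-type matches, and each gene has a second start, not shown, with 4 and 2. At the second Alad start, the matches 212 and 210 bases before it are the same bases as those shown for the first. The pattern CCNCNCCC also takes stretches without the letters CACCC, as at the first Alad and first Uros starts. Urod and Ppox held no match of either kind, although they varied closely with the other genes (r = 0.986 and 0.976 over the 12 mice). Cpox held 2 GATA matches and the first Steap3 start 1, and Steap3 also held CACCC-type matches. Both of these genes were too dim to be read, and their sequences are not shown. Entries were read for 8 of the 10 genes with 14 starts in all, of which 4 (28.6%) held a GATA match and 9 (64.3%) a CACCC-type match. Over the 32851 promoters of the table, 26.5% held the first and 45.9% the second, so the share with a GATA match was near that of all promoters. The CACCC-type share was higher, but the starts are not separate, since the windows of the Alad starts overlap, as do those of Tfrc. Steap3 also supplied several of the starts with a CACCC-type match. Whether either share differs from that of all promoters was not tested. A match describes letters only, and where the probes lie in relation to these starts was not examined.

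The enzyme that opens the pathway, Alas2, was at 12.04, 11.83, 11.70 and 12.08 in control mice 1 to 4, at 12.06, 11.16, 12.59 and 11.71 in HFD-CO mice 1 to 4, and at 11.43, 12.91, 12.91 and 12.53 in HFD-ED mice 1 to 4. HFD-ED mice 2, 3 and 4 lay above every control mouse, but HFD-CO mouse 3 lay slightly above HFD-ED mouse 4, and HFD-ED mouse 1 lay below all 4 controls. The HFD-ED minus control difference was 0.53 ± 0.35 (SE, n = 4 in each diet; adjusted p = 0.665, limma), and the difference from HFD-CO was 0.57 ± 0.35 (SE; adjusted p = 0.671). Alas1, the form of the first enzyme used by most other tissues, stayed between 10.47 and 10.74 in all mice, with an HFD-ED minus control difference of 0.00 ± 0.06 (SE; adjusted p = 0.997).

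**Figure D1:**
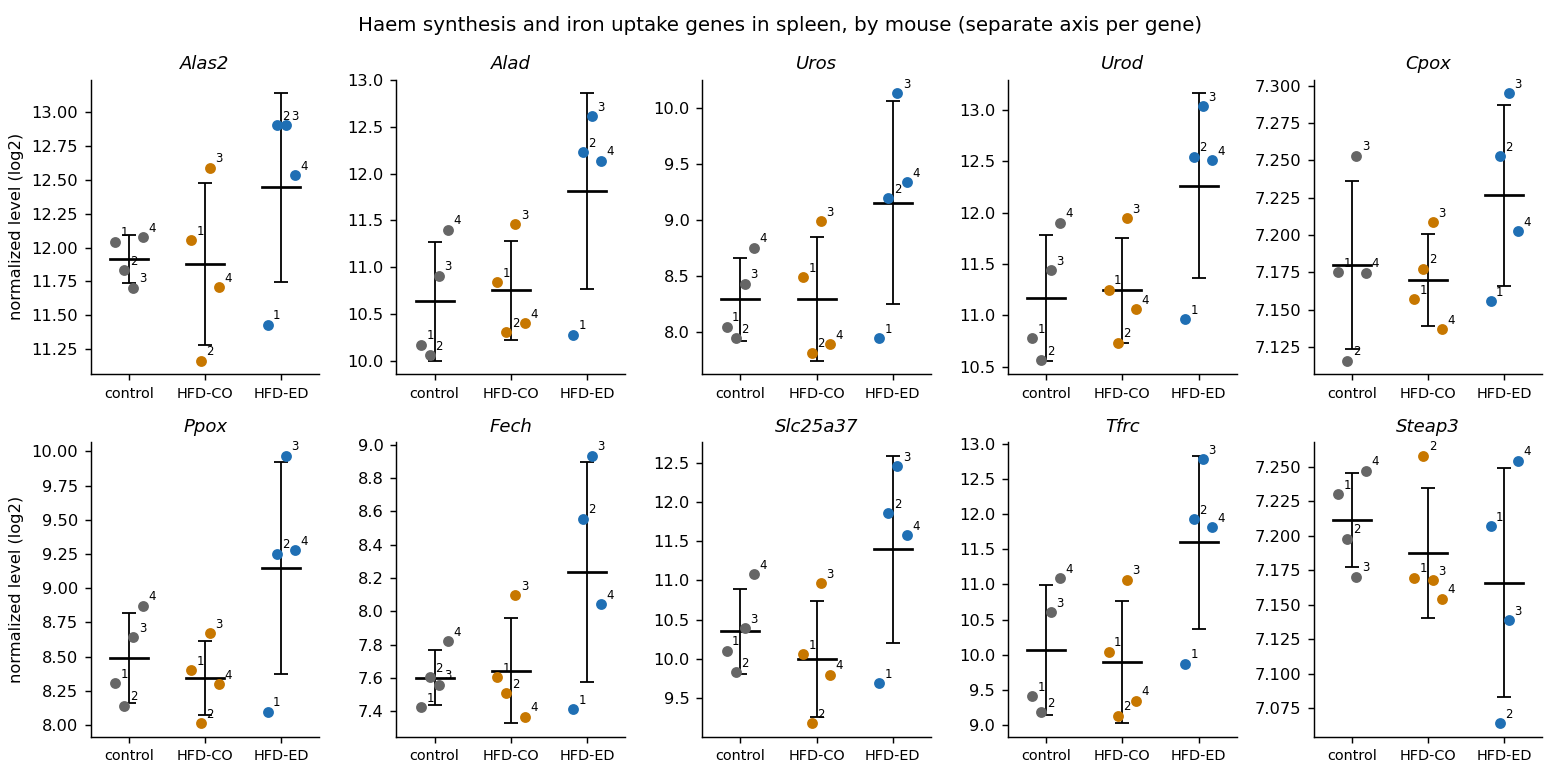
Normalized log2 level of the 10 genes in each mouse, with an axis of its own for each gene. Points are mice, numbered by replicate, horizontal bars the mean of a diet and vertical bars ± SD (n = 4). HFD-ED mice 2, 3 and 4 stand above every control mouse in 8 genes, while the Cpox and Steap3 axes span less than 0.2 log2 units.

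The next 3 genes encode cytosolic enzymes. Alad, which condenses aminolevulinic acid into porphobilinogen, was at 10.17, 10.06, 10.91 and 11.40 in control mice 1 to 4, at 10.84, 10.30, 11.46 and 10.40 in HFD-CO mice 1 to 4, and at 10.28, 12.23, 12.61 and 12.14 in HFD-ED mice 1 to 4. The 3 upper HFD-ED mice lay above all 8 mice of the other diets, and HFD-ED mouse 1 fell among the lower ones. The HFD-ED mean was higher than the control mean by 1.18 ± 0.50 (SE, n = 4 in each diet; adjusted p = 0.455, limma), or 2.27-fold with a 95% interval of 1.06 to 4.86. Uros, uroporphyrinogen III synthase, was at 8.05, 7.95, 8.43 and 8.76 in control mice 1 to 4, at 8.50, 7.82, 8.995 and 7.89 in HFD-CO mice 1 to 4, and at 7.95, 9.20, 10.14 and 9.34 in HFD-ED mice 1 to 4. Its 3 upper HFD-ED mice again lay above all mice on the other diets, and HFD-ED mouse 1, at 7.95, matched the lowest control. The difference from control was 0.86 ± 0.42 (SE, n = 4 in each diet; adjusted p = 0.524, limma). Urod, which removes carboxyl groups from the ring, was at 10.78, 10.57, 11.44 and 11.90 in control mice 1 to 4, at 11.25, 10.73, 11.94 and 11.06 in HFD-CO mice 1 to 4, and at 10.96, 12.54, 13.04 and 12.51 in HFD-ED mice 1 to 4. No control or HFD-CO mouse reached the level of HFD-ED mice 2, 3 and 4. The Urod difference was 1.09 ± 0.45 (SE, n = 4 in each diet; adjusted p = 0.446, limma), the smallest adjusted p of the 10 genes in that comparison. Against HFD-CO the means were higher by 1.06 for Alad, 0.86 for Uros and 1.02 for Urod, with adjusted p of 0.557, 0.576 and 0.527 (limma).

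The 3 last steps take place in the mitochondrion. Cpox, coproporphyrinogen oxidase, lay between 7.12 and 7.30 in all 12 mice on its brightest probe, and its other 3 probes were lower still, so its level and any difference between the diets could not be read on these arrays. Ppox, protoporphyrinogen oxidase, was at 8.30, 8.14, 8.64 and 8.87 in control mice 1 to 4, at 8.40, 8.01, 8.67 and 8.30 in HFD-CO mice 1 to 4, and at 8.10, 9.25, 9.97 and 9.28 in HFD-ED mice 1 to 4. The same 3 HFD-ED mice lay above all others and HFD-ED mouse 1 lay below every mouse but 1. Its HFD-ED minus control difference was 0.66 ± 0.33 (SE, n = 4 in each diet; adjusted p = 0.535, limma). Fech, ferrochelatase, was at 7.43, 7.60, 7.56 and 7.82 in control mice 1 to 4, at 7.61, 7.51, 8.10 and 7.37 in HFD-CO mice 1 to 4, and at 7.41, 8.56, 8.93 and 8.04 in HFD-ED mice 1 to 4. HFD-ED mice 2, 3 and 4 lay above every control, and HFD-CO mouse 3 slightly above HFD-ED mouse 4. The Fech values of control mouse 1, HFD-CO mouse 4 and HFD-ED mouse 1 were under 7.5, near the lower end of the scale, so their order is uncertain. The Fech difference from control was 0.63 ± 0.28 (SE, n = 4 in each diet; adjusted p = 0.478, limma). Against HFD-CO, Ppox was higher by 0.80 (adjusted p = 0.503) and Fech by 0.59 (adjusted p = 0.562, limma).

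The widest ranges were those of Slc25a37 and Tfrc. Slc25a37 was at 10.11, 9.83, 10.39 and 11.08 in control mice 1 to 4, at 10.06, 9.18, 10.96 and 9.80 in HFD-CO mice 1 to 4, and at 9.69, 11.86, 12.46 and 11.57 in HFD-ED mice 1 to 4, a range of 3.28 log2 units. HFD-ED mice 2, 3 and 4 lay above all 8 mice of the other diets. Its HFD-ED mean exceeded control by 1.04 ± 0.56 (SE, n = 4 in each diet; adjusted p = 0.57, limma) and HFD-CO by 1.40 ± 0.56 (SE, n = 4 in each diet; adjusted p = 0.499, limma). Tfrc, the receptor that brings in transferrin iron and whose mRNA is known to be stabilised when iron is scarce, was at 9.41, 9.18, 10.61 and 11.09 in control mice 1 to 4, at 10.04, 9.13, 11.07 and 9.35 in HFD-CO mice 1 to 4, and at 9.88, 11.93, 12.78 and 11.81 in HFD-ED mice 1 to 4. It had the largest range of the 10 genes, 3.65 log2 units, and here HFD-ED mouse 1 lay above 4 of the 8 mice on the other diets. The Tfrc difference was 1.53 ± 0.66 (SE, n = 4 in each diet; adjusted p = 0.467, limma) against control and 1.70 ± 0.66 (SE, n = 4 in each diet; adjusted p = 0.49, limma) against HFD-CO, which is 2.88-fold and 3.25-fold with 95% intervals of 1.05 to 7.91 and 1.18 to 8.93. Tfrc is also expressed by dividing cells of many kinds. Steap3, the reductase that follows it, stayed between 7.06 and 7.26 on its brightest probe and could not be read, as with Cpox. The Steap3 mean was lower by 0.05 in HFD-ED than in control (adjusted p = 0.762, limma).

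The second probe of Tfrc correlated with the first at r = 0.995 over the 12 mice, and the second Uros probe at r = 0.971. A dim second Ppox probe and the 3 dim probes of Fech correlated with the main ones at r = 0.932, 0.975, 0.854 and 0.249. The remaining probes among the 24 of these genes were dim, with means below 7.5; they were another Uros probe (r = 0.067), a second Slc25a37 probe (r = 0.285), 3 Cpox probes (r = 0.545 to 0.720) and 3 Steap3 probes (r = -0.561 to 0.191).

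**Figure D2:**
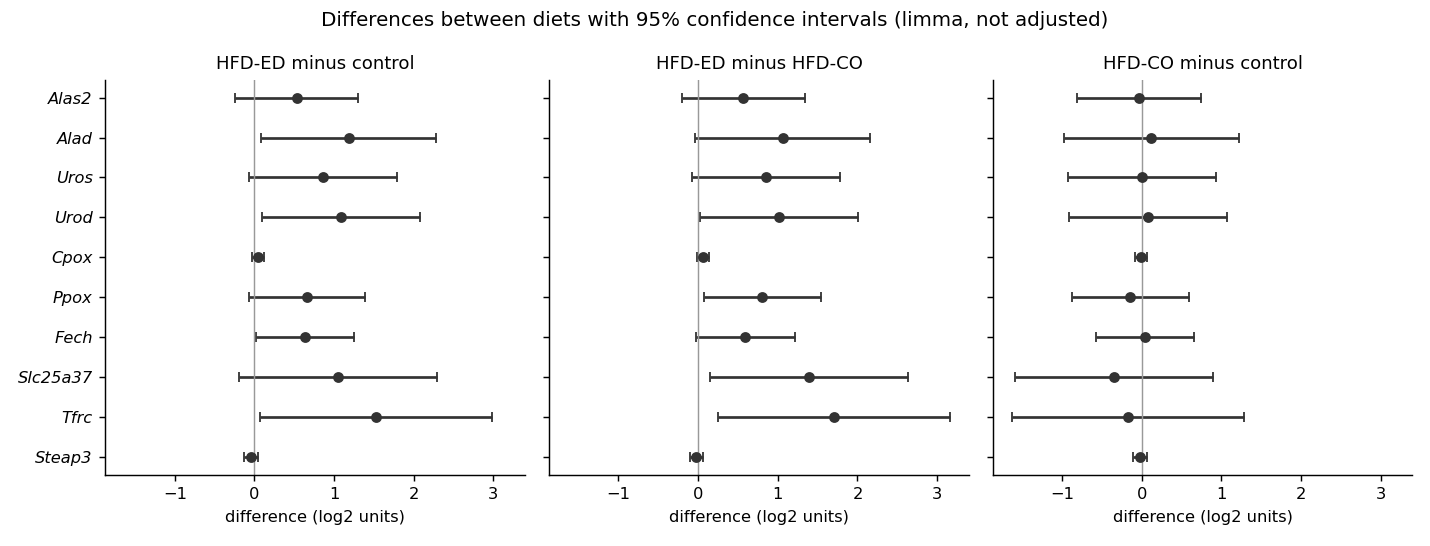
Difference between diet means for each gene in log2 units, with 95% confidence intervals from limma (4 mice per diet, not adjusted for the number of probes). The intervals of HFD-ED minus control leave out 0 for Alad, Urod, Fech and Tfrc, those of HFD-ED minus HFD-CO for Urod, Ppox, Slc25a37 and Tfrc, and all intervals of HFD-CO minus control include 0.

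Counted over the 10 genes, 0 were called in HFD-ED against control and 0 in HFD-ED against HFD-CO. At an unadjusted p of 0.05, 4 were higher in each of these comparisons, where 4.54% and 4.6% of all probes were, and 9.89% and 9.71% of those with a mean of 7.5 or more. The median difference of the 10 genes was 0.76 against control and 0.83 against HFD-CO, beside medians of -0.002 in both over all probes. The comparisons share the HFD-ED mice, so that they are not separate evidence, and the 10 genes were read in the same mice, so that their number adds no replicates. HFD-ED mice 2, 3 and 4 lay above every control mouse in 8 genes, where 5.66% of all probes did so, and above every HFD-CO mouse in 6, where 5.38% did. These 3 mice were picked out after the values were seen, and these counts are a description only.

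In the high fat diet without fish oil the means differed from control by at most 0.35 log2 units, and 0 of the 10 genes were called (0% of all probes). The HFD-CO minus control differences ran from -0.35 (Slc25a37) to 0.12 (Alad), with a median of -0.02 and adjusted p of 0.99996 for each gene (limma). Their intervals were wide, from -1.60 to 0.89 for Slc25a37 and from -0.98 to 1.22 for Alad, so that a Slc25a37 level 2-fold below control and an Alad level 2-fold above it lay inside them.

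The size of the differences rested on single mice. Without HFD-ED mouse 3, the highest mouse, the median difference of the 10 genes was 0.47 against control and 0.53 against HFD-CO, in place of 0.76 and 0.83. The differences from control were then 0.53 for Uros, 0.39 for Ppox, 0.40 for Fech and 0.69 for Slc25a37, and those from HFD-CO were 0.53, 0.53 and 0.36 for the first 3. Without HFD-CO mouse 2, Alas2 differed from HFD-CO by 0.33. Without HFD-ED mouse 1, the median difference of the 10 genes was 1.14 against control and 1.21 against HFD-CO, Tfrc differed by 2.10 and 2.28, Alad by 1.69 and 1.58, and Alas2 by 0.87 and 0.90. The adjusted p then fell to between 0.067 and 0.647 against control and between 0.0772 and 0.834 against HFD-CO, so that 0 of the 10 genes were called even then, while 87 probes (0.192%) and 46 probes (0.102%) of the array were. HFD-ED mouse 1 is also 1 of the 4 mice with pancreatic RNA. With all 4 left out, a choice made after the data were seen, adjusted p lay between 0.284 and 0.761 against control and between 0.445 and 0.847 against HFD-CO. Whether pancreatic tissue in the sample set the levels of HFD-ED mouse 1 was not tested. The mean deviation of the 10 genes from their 12-mouse means was -0.52 in HFD-ED mouse 1, and in mice with Amy2a5 below 10 it was lowest in HFD-CO mouse 2, at -0.70.

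**Figure D3:**
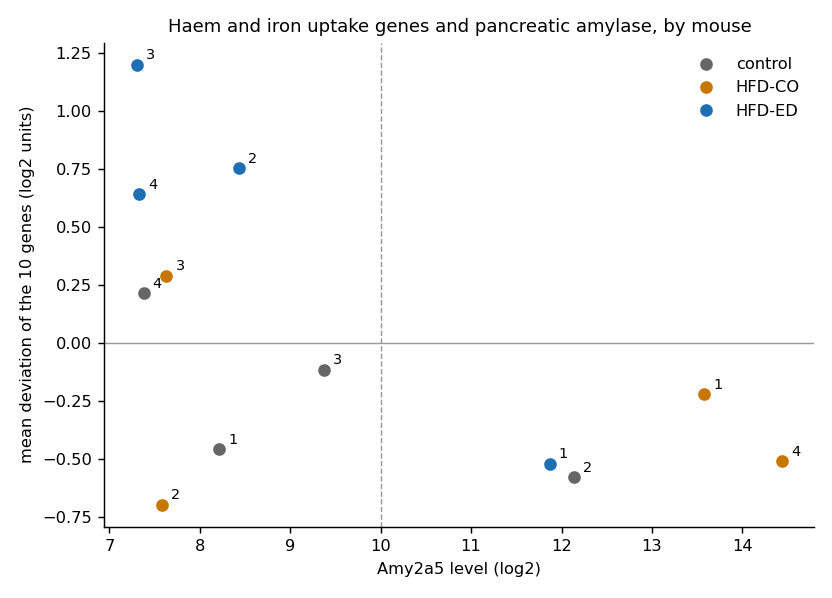
Mean deviation of the 10 genes from their 12-mouse means in log2 units, against the log2 level of the pancreatic amylase Amy2a5, for each mouse numbered by replicate. The dashed line marks the level of 10 used to set mice apart. The 4 mice to its right have mean deviations of -0.58 to -0.22, and the 8 to its left span -0.70 to 1.20.

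The 8 brighter genes varied together from mouse to mouse. The mean deviation of the 10 genes was -0.46, -0.58, -0.12 and 0.22 in control mice 1 to 4, -0.22, -0.70, 0.29 and -0.51 in HFD-CO mice 1 to 4, and -0.52, 0.75, 1.20 and 0.64 in HFD-ED mice 1 to 4. Control mouse 4 and HFD-CO mouse 3 were thus the highest of their diets. HFD-ED mouse 3 was the highest of all mice in 8 of the 10 genes, the dim Cpox among them. In Alas2 it shared the top level, 12.91, with HFD-ED mouse 2. Correlated with the mean of the other 9, the 8 brighter genes gave r of 0.89 (Alas2) to 0.99 (Urod) over 12 mice, with rho of 0.84 (Fech) to 0.97, and r of 0.71 (Alas2) to 0.98 (Uros) over the 8 control and HFD-CO mice alone. The points share the array, the tissue piece and its mix of cells.

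The genes whose pattern over the 12 mice was most like the mean of the 10 were Tspan8, Ubac1, Sptb, Slc6a9, Tspan33, Klf1, Dmtn, Ppp1r15a, Dapk2 and Car2, with r of 0.991 to 0.996 among 19047 genes, and r of 0.965 to 0.992 over the 8 control and HFD-CO mice alone. Sptb, which encodes the red cell spectrin, and Car2, a carbonic anhydrase, also belong to the erythroid marker list used here, and Slc6a9 encodes a glycine transporter. In all, 394 genes had r above 0.9, so the pattern was shared widely. Klf1, which encodes an erythroid transcription factor, was at 7.96, 7.94, 9.04 and 9.71 in control mice 1 to 4, at 8.63, 7.92, 9.90 and 7.94 in HFD-CO mice 1 to 4, and at 8.12, 10.74, 11.47 and 10.35 in HFD-ED mice 1 to 4. It showed the same 3 high HFD-ED mice and the same upper mice in the other diets.

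**Figure D4:**
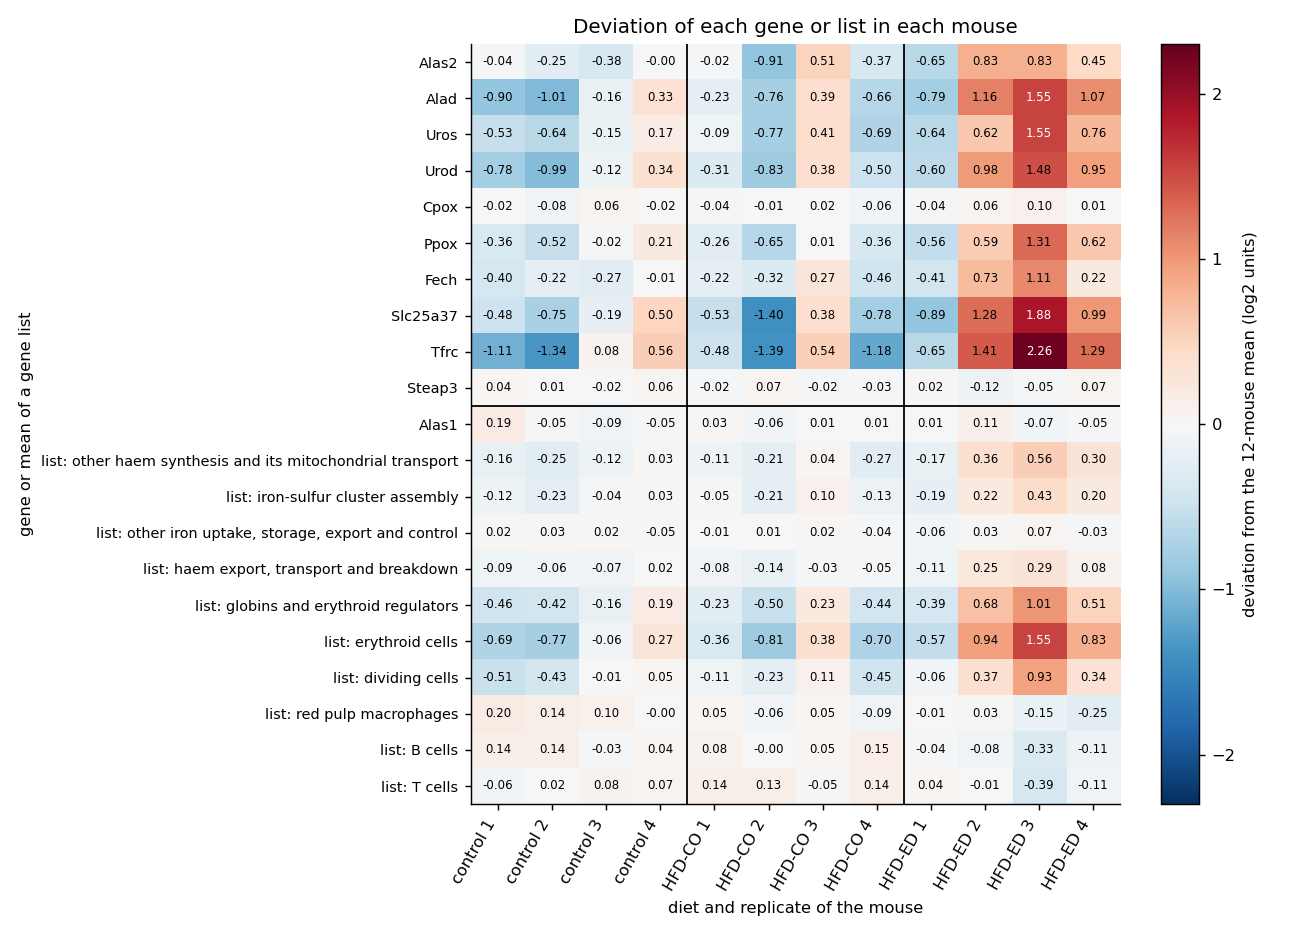
Deviation of each gene, or of the mean of each gene list, from its 12-mouse mean in log2 units, for each mouse; the numbers in the cells are the values drawn in colour. Alas1 and the mean of the list of other iron genes stay within 0.19 of their 12-mouse means. Single genes of that list, not drawn, differ in direction and vary more, such as Ncoa4 with a range of 1.29. The erythroid list runs from -0.81 to 1.55 and is highest in HFD-ED mouse 3, as most of the 10 genes are.

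Of 14 markers of erythroid cells 12 were measured. All 12 had a higher mean in HFD-ED than in control, with 0 called and a median difference of 1.09. At an unadjusted p of 0.05 (limma), 7 of the 12 were higher, where 4.54% of all probes were, and 9.89% of those with a mean of 7.5 or more. So were 5 of 6 dividing cell, 7 of 7 megakaryocyte and 1 of 10 neutrophil markers. The mean deviation of the erythroid markers was -0.77 to 0.27 in control, -0.81 to 0.38 in HFD-CO and -0.57 to 1.55 in HFD-ED mice. Rhd, Epb42 and Tmod1 were dim, Epb42 with a difference of only 0.015. Rhag and Tspo2 had means under 7.5 in control and HFD-CO and passed that level over the 12 mice only through HFD-ED. The 6 markers of dividing cells measured ran from -0.51 to 0.05, -0.45 to 0.11 and -0.06 to 0.93 in the same order, with Ccna2 and Bub1 dim. Neutrophil markers had a higher mean in HFD-ED than in control for 10 of 10, with mean deviations of -0.61 to 0.35, -0.81 to -0.29 and -0.30 to 1.79, and megakaryocyte markers for 7 of 7, with -0.18 to -0.02, -0.37 to -0.22 and 0.03 to 0.73, with 0 called in either list. The neutrophil marker Mmp8 was dim, with a difference of only 0.004. B cell, T cell and red pulp macrophage markers had lower means in 5 of 6, 5 of 7 and 8 of 8, with 0 called, and HFD-ED mouse 3 had the lowest mean deviation of the B cell and T cell lists, at -0.33 and -0.39. Pax5 of the B cell list and Cd4 and Cd8a of the T cell list were dim. The part of cell composition in the levels of the 10 genes was not tested.

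The rest of the pathway was read from lists of genes by function. Among other genes of haem synthesis and its mitochondrial transport, 10 were measured and 9 had a higher mean in HFD-ED than in control, with 0 called and a median of 0.42. Slc25a39, a mitochondrial glutathione carrier, differed by 0.56 ± 0.15 (SE; adjusted p = 0.310, limma), and Abcb6, a porphyrin transporter, by 0.51 ± 0.18 (SE; adjusted p = 0.389). Abcb6 was dim in control (mean 7.38) and HFD-CO (7.40) and passed 7.5 only through HFD-ED (7.89). Shmt2, the mitochondrial serine hydroxymethyltransferase that makes glycine, and Sfxn1, a mitochondrial serine carrier, differed by 0.23 and 0.40 (adjusted p = 0.344 and 0.352).

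**Figure D5:**
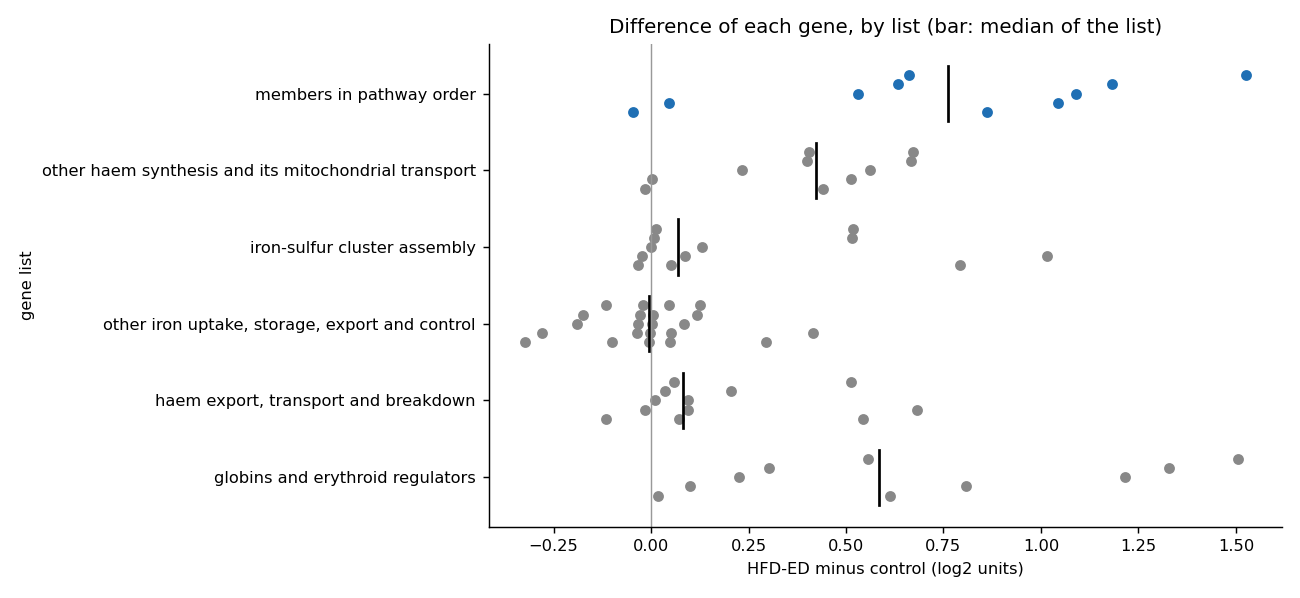
HFD-ED minus control difference in log2 units of each measured gene, dim genes included, by list, with a bar at the median of each list; the top row holds the 10 genes. Medians are 0.76 for the 10 genes, 0.42 for other haem synthesis, 0.07 for iron-sulfur cluster assembly, -0.005 for other iron genes, 0.08 for haem export and breakdown and 0.58 for globins and erythroid regulators.

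Iron-sulfur clusters are needed by the pathway, since FECH itself holds one. Of 15 assembly genes 12 were measured, 9 with a higher mean in HFD-ED than in control and 0 called, at a median of 0.07. These counts include the dim Lyrm4, Fdx2, Hscb and Isca2. Glrx5, which passes clusters on, differed by 1.01 ± 0.40 (SE; adjusted p = 0.434, limma), Iba57 by 0.52 (adjusted p = 0.408) and Bola3 by 0.52 (adjusted p = 0.458). Hscb, a co-chaperone of assembly, was dim and differed by 0.09.

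Other genes of iron uptake, storage, export and control were divided in direction. All 22 were measured, 10 with a higher and 12 with a lower mean in HFD-ED than in control, 0 called in either direction, and a median of -0.005. Only 15 of the 22 had means of 7.5 or more. Tfr2, Steap1, Steap2, Steap4, Aco1, Slc39a14 and Hamp were dim, and the counts and the median include them although their differences could not be read. Slc40a1, the iron exporter ferroportin, which is abundant in red pulp macrophages, differed by -0.28 ± 0.08 (SE; adjusted p = 0.342, limma). Its HFD-CO mean was also lower than control, with a difference of -0.21 (adjusted p = 0.99996, limma). The HFD-ED minus HFD-CO difference of Slc40a1 was -0.07 (adjusted p = 0.872, limma). Trf, transferrin itself, differed by -0.32 (adjusted p = 0.441), Ftl1, the ferritin light chain, by -0.18 (adjusted p = 0.502), and Tfr2, the second transferrin receptor, by 0.29 on a dim probe (adjusted p = 0.488).

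Among 12 genes of haem export, transport and breakdown, 10 had a higher mean in HFD-ED than in control and 0 were called, at a median of 0.08. Flvcr2, Abcg2 and Hpx were dim and are included in these counts. The largest difference was that of Blvrb, a biliverdin reductase abundant in red cells, at 0.68 ± 0.28 (SE; adjusted p = 0.446, limma). Hp, haptoglobin, differed by 0.54 (adjusted p = 0.533), Hebp1, a haem-binding protein, by 0.51 (adjusted p = 0.559), and Cd163, the haemoglobin scavenger receptor, by 0.20 (adjusted p = 0.550).

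Of 14 globin genes and erythroid regulators 10 were measured, all 10 with a higher mean in HFD-ED than in control and 0 called, at a median of 0.58. The dim Hbb-bh1 and Gata1 are among the 10. Eif2ak1, the haem-regulated kinase that slows translation when haem is short, was at 8.60, 8.47, 8.82 and 9.27 in control mice 1 to 4, at 8.88, 8.68, 9.17 and 8.62 in HFD-CO mice 1 to 4, and at 8.75, 9.94, 10.20 and 9.51 in HFD-ED mice 1 to 4. HFD-ED mice 2, 3 and 4 lay above all others, and the difference from control was 0.81 ± 0.28 (SE; adjusted p = 0.395, limma). Tal1, an erythroid transcription factor, differed by 1.21 (adjusted p = 0.459), Epor, the erythropoietin receptor, by 0.61 (adjusted p = 0.444) and Gata1 by 0.22 on a dim probe (adjusted p = 0.411). The globin Hba-a1 lay between 14.20 and 14.62 in all mice, near the top of the scale, where differences between mice can be lost.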

How the data were processed

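RNA from the spleen of 12 mice was hybridized to MouseWG-6 v2.0 arrays (Illumina), with a single array for each mouse. Per the study's methods, the authors extracted bead intensities with GenomeStudio, applied a variance-stabilizing transformation and quantile normalization with lumi (version 2.18.0 in the submitters' processing notes), and deposited 45281 log2-scale values per array. This scale is near log2 for bright probes and compressed for dim ones, so changes of dim genes are understated. Detection p-values were not used here, and the 4 arrays per diet limit precision. Of the probes, 34885 carried 1 gene symbol, 18 several and 10378 none. No 2 arrays held identical values.

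The 3 diets were compared with limma 3.58.1 in R 4.3.3, in 1 fit of all 12 mice with an empirical Bayes variance, Benjamini-Hochberg adjustment over all probes and calls made below 0.05 (0.001 in the study's methods). The study's own fit was not rebuilt in every setting, and a statement that nothing was called holds for the fits described here of the deposited values. The fit was tested on simulated data first. In each list, the genes named were the 4 measured genes with the smallest p in HFD-ED against control, with Alas1 added, and Hba-a1, Zfp58 and the genes named for other called probes were chosen after their values were seen. Lists and members were chosen with earlier results of these data known. Sequences and starts came from RefSeq (GRCm38.p6), with entries for 8 of the 10 genes used. Alternatives were a replicate block, variance trend, robust variance, array weights, dim probes (mean under 7.5) left out, 1 probe per gene, the mean of all probes of a gene, median centring, cyclic loess, 2 diets only, adjustment over 3 comparisons and leaving out each mouse, and, added after the data were seen, leaving out the 4 mice with Amy2a5 above 10.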

Additional observations from a re-analysis of the deposited data

Results flagged for a closer look

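In 5 of 93 groups of 4 mice examined, over 31 genes, 1 mouse stood apart from the other 3 by more than the 95% limit of Dixon's test, and chance alone flags about 1 in 20. Steap3 was at 7.26 in HFD-CO mouse 2 and at 7.15 to 7.17 in the other HFD-CO mice, all near the lower end of the scale. Alas1 was at 10.74 in control mouse 1 and at 10.47 to 10.50 in the other controls. Epor was at 7.77 in HFD-CO mouse 3, against 7.36 to 7.43 in the rest of its diet. HFD-ED mouse 3, the mouse highest in 8 of the 10 haem and iron genes (the dim Cpox included), stood apart in both Hp, at 9.37 against 7.86 to 8.05, and Ftl1, at 12.86 against 13.20 to 13.24. The causes were not tested.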

How the results depend on the processing

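None of the 10 genes reached an adjusted p of 0.05 under any of the 12 alternatives or when any of the 12 mice was left out. The lowest values were 0.067 (HFD-ED against control), 0.0772 (HFD-ED against HFD-CO) and 0.937 (HFD-CO against control). None of the 192 values of the 8 brighter genes changed sign in either HFD-ED comparison. Steap3 did, with the mean of all its probes, at 0.020 and 0.031. Cpox and Steap3 had no value with dim probes left out. In HFD-CO against control, 24 of 238 values changed sign. The 1 probe called in HFD-ED against HFD-CO became 0 with a replicate block, a variance trend, dim probes left out, cyclic loess, only the 2 diets, adjustment over 3 comparisons, or without the mice with pancreatic RNA. In HFD-ED against control, 3 probes (Klra3, Klre1 and Zfp58) were called with 1 probe per gene and 1 (Lgals8) without the mice with pancreatic RNA, which also left 2 genes higher in HFD-CO than in control in place of 4, with Uros at -0.00741 and Urod at -0.035. Leaving out each mouse gave 0 to 87 probes called in HFD-ED against control, 0 to 46 in HFD-ED against HFD-CO, both highest without HFD-ED mouse 1, and 0 to 7 genes higher in HFD-CO than in control. It moved the HFD-CO minus control difference of Alad from -0.12 to 0.37, Alas2 from -0.27 to 0.20, Cpox from -0.031 to 0.015, Fech from -0.11 to 0.13, Tfrc from -0.57 to 0.16, Urod from -0.16 to 0.32 and Uros from -0.23 to 0.16, and Steap3 in HFD-ED minus HFD-CO from -0.051 to 0.012. No clear pairing of mice by replicate number was seen: 4 of 12 same-number pairs correlated above 0.1 (r from -0.257 to 0.371), and the best match of 3 mice carried the same number. The sample labels do not say what the numbers mean, and such correlations cannot show whether mice shared a cage or batch.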
